A study of Mus musculus with 6 samples.

Results

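Kit ligand (Kitl), hepatocyte growth factor (Hgf) and the receptor genes Kit, Met and Mst1r were followed in stem and basal cells of the neonatal mouse prostate. The members were all probes whose printed gene name was one of these symbols, which gave 5 probes for 5 genes, of 55681 probes and 36282 gene symbols on the array. All cells came from untreated male FVB/N mice at postnatal day 6 that carried the Tg 11.5kb-GFP transgene, in which the s-SHIP promoter, from inside the gene of the phosphatase SHIP1, drives GFP. Prostate cells without the lineage antigens Ter119, CD31 and CD45 and with Sca-1 and CD49f, called LSC cells, were sorted into LSC GFP+ and LSC GFP- cells, and each population was measured in 3 independent samples. The comparison asks what sets the GFP+ cells, the candidate stem cells, apart from the other LSC cells of the same mice. The transgene is also active in vascular smooth muscle cells, which the LSC gate is meant to leave out, and how many mice went into a sample is not given in the sources used here.

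Kitl encodes stem cell factor, a membrane-anchored or shed ligand that dimerises and activates the receptor tyrosine kinase Kit. The pair is known for its role in germ cells, melanocytes, mast cells, interstitial cells of Cajal and blood stem cells, and Kit has been used as a surface marker of stem cells in the adult mouse prostate. Hgf is secreted as an inactive precursor, mostly by mesenchymal cells, and once cleaved by serine proteases it activates Met on epithelial cells, which drives their scattering and branching. Mst1r encodes Ron, the sister receptor of Met, whose ligand is the HGF-like protein Mst1.

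Each gene was read by a single probe of 60 bases, so every level below rests on 1 place in its transcripts. Shown are the first 30 bases of each probe, a part of the stretch that the arrays sampled, all in lower case since no motif is marked.
Kitl: tcttcagtcacaacctgcagcctgtcgtta
Kit: gtcaggtacttaaggggccacaccattgag
Hgf: agtgtgtttgaagcatccatggatacatga
Met: acctgtcccctatcctgacgagtggagact
Mst1r: cagcatgagccagtgacatttttgtagcat
In the mouse build mm9, the array design places the Kitl probe at chr10:99558962-99559021, the Kit probe at chr5:76052394-76052453 and the Hgf probe at chr5:16124829-16124888. It places the Met probe at chr6:17503299-17503358 and the Mst1r probe at chr9:107822566-107822625. No annotation of that build was used here, so the exon and the strand of each probe are not given. The probes were alike in base composition, with a GC content of 45% for Kitl and Met, 40% for Hgf, 38.3% for Kit and 36.7% for Mst1r. The Kitl and Met probes are each assigned to 3 Ensembl transcripts, and the values cannot tell these apart. The Met and Mst1r probes were printed in 10 spots per array, the Kit probe in 2, and the Kitl and Hgf probes in 1.

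Levels are given as the log2 of the scanner's processed signal minus the 75th percentile of the same array, so that 0 is the signal of that percentile and a step of 1 is a doubling. Between 36651 and 42123 probes per array exceeded the background clearly, by the scanner software's own mark (well above background). A probe was tested with limma where this held on all 3 arrays of at least 1 population, which 37005 probes met. Of the members, 4 of 5 passed this filter and Mst1r did not. The 11 basal epithelial markers examined were well above background on all 6 arrays. Krt5 had a mean level of 4.95 in LSC GFP+ and 4.25 in LSC GFP- cells, and Itga6, which encodes CD49f, 3.67 and 3.42. Ptprc, which encodes the sorted-out antigen CD45, was also above background on all 6 arrays, at -1.48 and -1.43.

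Kitl and Kit, the ligand and its receptor, differed in opposite directions between the populations. Kitl was 2.25-fold higher in LSC GFP+ cells and Kit was 1.7-fold lower. Hgf was dim, with overlapping populations and a mean that was higher in LSC GFP+ cells, and its size depended on the background correction. Met was present in both at levels that differed by less than their spread, and Mst1r stayed near background on all 6 arrays. Of the 3 members that were well above background on all 6 arrays, Kitl was called higher and Kit lower at an unadjusted p under 0.05. Of all 33845 probes of that kind 7.40% were called, 3.45% higher and 3.95% lower. Hgf passed the filter only through LSC GFP+, where it is the higher, so its call at that threshold adds no support to this count. Of all 37005 tested probes 7.90% were called, 1250 higher (3.38%) and 1675 lower (4.53%), a balance that turned to 1471 higher and 1299 lower with median scaling and to 1668 and 1606 with quantile normalization. None of the 4 tested members passed after Benjamini-Hochberg adjustment, which 1 of the 37005 probes (0.00270%) did. Below, higher and lower are used of genes past the unadjusted threshold.

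**Figure D1:**
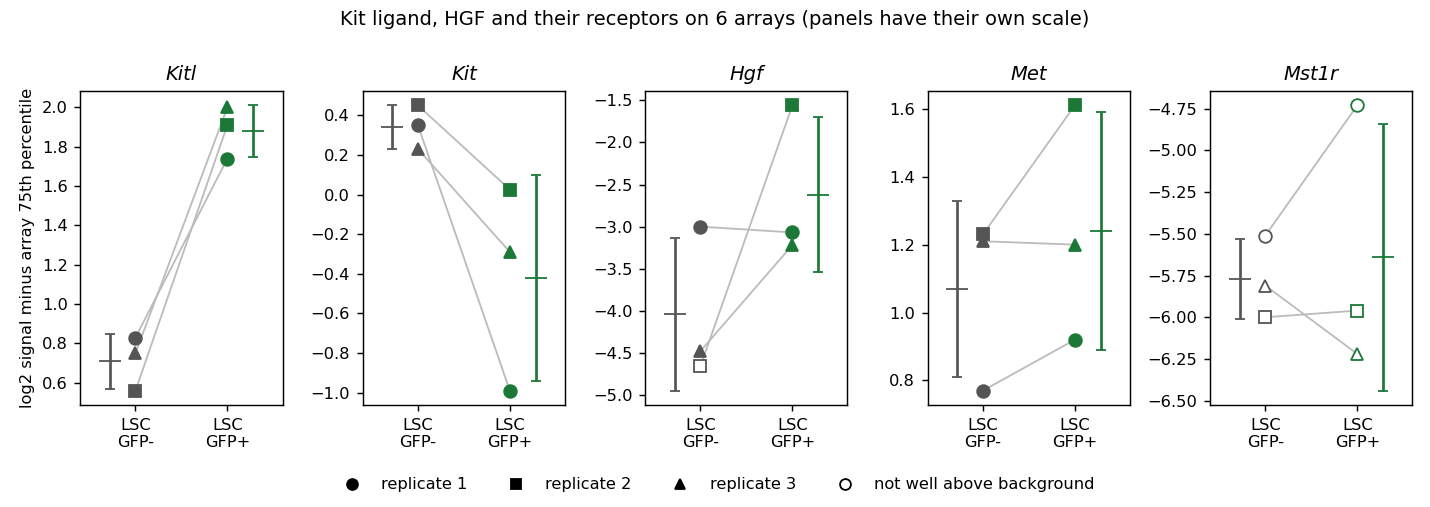
Levels of the 5 genes on the 6 arrays, as log2 signal minus the array's 75th percentile, with LSC GFP- on the left and LSC GFP+ on the right of each panel. Grey lines join samples with the same replicate number, bars are the mean ± SD of 3 samples, and open symbols mark arrays where the probe was not well above background. The populations do not overlap for Kitl and Kit, and every Mst1r symbol is open.

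Kitl was measured at 1.74, 1.91 and 2.0 in LSC GFP+ replicates 1, 2 and 3, and at 0.83, 0.56 and 0.75 in LSC GFP- replicates 1, 2 and 3. All 3 LSC GFP+ samples lay above all 3 LSC GFP- samples. The means were 1.88 ± 0.13 and 0.71 ± 0.14 (SD, n = 3 each), a log2 difference of 1.17 with a standard error of 0.19. The 95% interval of the fold change ran from 1.66 to 3.05. The limma p was 0.000296 and its adjusted value 0.106, and the probe ranked at 103 of all tested probes by p. An exact two-sided permutation test gave p = 0.1, the smallest value that 3 against 3 samples allow. The difference was positive for each replicate number, at 0.91, 1.34 and 1.25. The study names Kitl, and Krt5 and Krt14 of the basal markers below, from these same arrays, so the value of Kitl here is not independent evidence of the direction. Kitl stayed past the unadjusted threshold in all 17 alternative analyses. The 11 basal markers moved alongside, with 5 higher in LSC GFP+ cells, among them the keratin genes Krt5 by 0.70, Krt14 by 1.18 and Krt15 by 0.52 on the log2 scale (limma adjusted p = 0.452, 0.135 and 0.53). They had a summed linear signal of 275 to 308 times the 75th percentile against 230 to 248, and their part in the Kitl difference was not tested. In sorted populations measured in bulk, more cells that express a gene and more RNA per cell cannot be told apart, here or for the genes below.

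Kit was measured at -0.99, 0.025 and -0.29 in LSC GFP+ replicates 1, 2 and 3, and at 0.35, 0.45 and 0.23 in LSC GFP- replicates 1, 2 and 3. The LSC GFP- samples lay close together and above every LSC GFP+ sample, while the LSC GFP+ samples were spread, with replicate 1 the lowest. The means were -0.42 ± 0.52 and 0.34 ± 0.11 (SD, n = 3 each). The log2 difference was -0.76 with a standard error of 0.28, and the 95% interval of the fold decrease ran from 1.08 to 2.66. The limma p was 0.0263 with an adjusted value of 0.495, and the exact permutation p was again 0.1. The difference was negative for each replicate number, at -1.35, -0.42 and -0.52. The 2 spots of an array differed with an SD of 0.069 to 0.17, below the SD of 0.52 among the LSC GFP+ samples. Without LSC GFP+ replicate 1 the log2 difference was -0.48, with a limma p of 0.0614, and the call was also lost without LSC GFP- replicate 1 (p of 0.0612) or LSC GFP- replicate 2 (p of 0.0723). Scaling by the array median gave -0.69 with a limma p of 0.0674, also short of the threshold, as was the methods' t-test.

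For both Kitl and Kit the populations did not overlap, which 12.3% of all tested probes showed. Because both probes were read on the same array, the difference between their log2 levels does not depend on which percentile of that array was subtracted. Quantile normalization or another background correction can still change the difference. This quantity was chosen after the values were seen. Kitl minus Kit was 2.74, 1.88 and 2.29 in LSC GFP+ replicates 1, 2 and 3, and 0.48, 0.12 and 0.52 in LSC GFP- replicates 1, 2 and 3. The means were 2.30 ± 0.43 and 0.37 ± 0.22 (SD, n = 3 each), so the signal of Kitl relative to that of Kit was 3.81-fold larger in LSC GFP+ cells (log2 difference 1.93, standard error 0.28). The exact permutation p was 0.1. Kitl and Kit each separated the populations, in opposite directions, so this p was fixed in advance and adds no support. The values say how this ratio changed, not which transcript was more abundant, since probes differ in brightness.

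Kit is also a gene of mast cells, melanocytes and interstitial cells of Cajal, so markers of these cells were examined beside it. Of 9 mast cell markers, the receptor subunits Fcer1a and Ms4a2 and the tryptase Tpsab1 were well above background on none of the arrays, and the protease Cpa3 was so in 1 LSC GFP+ sample. Gata2, a transcription factor of mast cells and other progenitors, was lower in LSC GFP+ cells by 0.99 on the log2 scale (limma adjusted p = 0.262). The tryptase Tpsb2 differed by -0.16 (limma adjusted p = 0.996), and the other markers ran both ways: Hdc, which makes histamine, was above background in 2 of 3 LSC GFP- samples and no LSC GFP+ sample, and the protease Mcpt4 in 2 of 3 LSC GFP+ samples and no LSC GFP- sample. The summed signal of the mast cell list was 3.83 to 4.82 times the 75th percentile in LSC GFP+ and 6.71 to 9.01 in LSC GFP- samples, most of it from Gata2, and without Gata2 it was 0.752 to 1.47 against 1.05 to 1.85, which overlap. Of the 7 melanocyte markers, Tyrp1 and Slc45a2 were above background on no array, Dct on 1, and none of the 4 tested, such as Tyr at -0.058, was called by limma. Their summed signal was 0.931 to 1.31 in LSC GFP+ and 1.33 to 1.51 in LSC GFP- samples. Of the 4 markers of interstitial cells of Cajal, Thbs4 was above background in 2 LSC GFP- samples and no LSC GFP+ sample, the chloride channel Ano1 differed by -0.38 (limma adjusted p = 0.736) and the connexin Gja1 was higher by 1.08 (adjusted p = 0.129), with summed signals of 13.1 to 16.5 and 15.2 to 17.0. The part of these cells in the Kit difference was not tested.

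Hgf was dim throughout, with processed signals on the linear scale of 47.4, 168 and 44.4 in LSC GFP+ replicates 1, 2 and 3 and of 50, 16.2 and 18.9 in LSC GFP- replicates 1, 2 and 3. On the log2 scale relative to the 75th percentile these were -3.07, -1.56 and -3.22 against -3.00, -4.66 and -4.48. The probe was well above background in all LSC GFP+ samples and in LSC GFP- replicates 1 and 3, but not in LSC GFP- replicate 2. LSC GFP+ replicate 2 was far above all others, LSC GFP- replicates 2 and 3 were the lowest, and LSC GFP- replicate 1 lay among the LSC GFP+ samples. The means were -2.62 ± 0.92 and -4.04 ± 0.91 (SD, n = 3 each), a log2 difference of 1.43 with a standard error of 0.56 and a 95% interval of 0.14 to 2.72. This difference includes the array on which the probe was not above background, and the probe was tested only because all 3 samples of the higher population were. The limma p was 0.0344 with an adjusted value of 0.552, and the exact permutation p was 0.3. With the replicate number as a blocking factor the limma p was 0.0616, past the threshold no longer, and the differences by number were -0.072, 3.1 and 1.26. The call was also lost without LSC GFP+ replicate 2 (log2 difference 0.90, limma p of 0.12), LSC GFP- replicate 2 (1.12, p of 0.106) or LSC GFP- replicate 3 (1.21, p of 0.0921). With another background correction, normexp, the difference was 0.46, with a limma p of 0.114, and the methods' t-test did not call it either.

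Hgf is mostly a gene of mesenchymal cells, and markers of those cells ran mostly the other way. Of 13 tested markers of stromal fibroblasts, 7 were lower in LSC GFP+ cells and 2 were higher, where 4.28% of genes at their brightest probe were lower and 3.38% higher. Of the 7, Pdgfra passed the filter only through LSC GFP-, where it is the higher, so its call adds no support to this count. The collagen genes Col1a1, Col1a2 and Col3a1 were lower, with log2 differences of -2.18, -2.15 and -1.97, with limma adjusted p of 0.107, 0.139 and 0.148. The exceptions were the matrix genes Dcn, at 1.19 (adjusted p = 0.202 by limma), and Fbln2, at 1.30 (adjusted p = 0.128). Of 7 tested smooth muscle markers 6 were lower, among them Acta2 at -2.13, Myh11 at -2.01 and Tagln at -0.86 (limma adjusted p = 0.14, 0.151 and 0.351). The summed signal of the stromal list was 30.3 to 35.1 times the 75th percentile in LSC GFP+ and 32.5 to 74.4 in LSC GFP- samples. That of the smooth muscle list was 7.04 to 10.6 against 20.0 to 38.5. The population with the higher mean of Hgf was the one with the lower smooth muscle signal, and Kit moved in the same direction as these lists. The part of these cells in the Hgf and Kit differences was not tested.

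**Figure D2:**
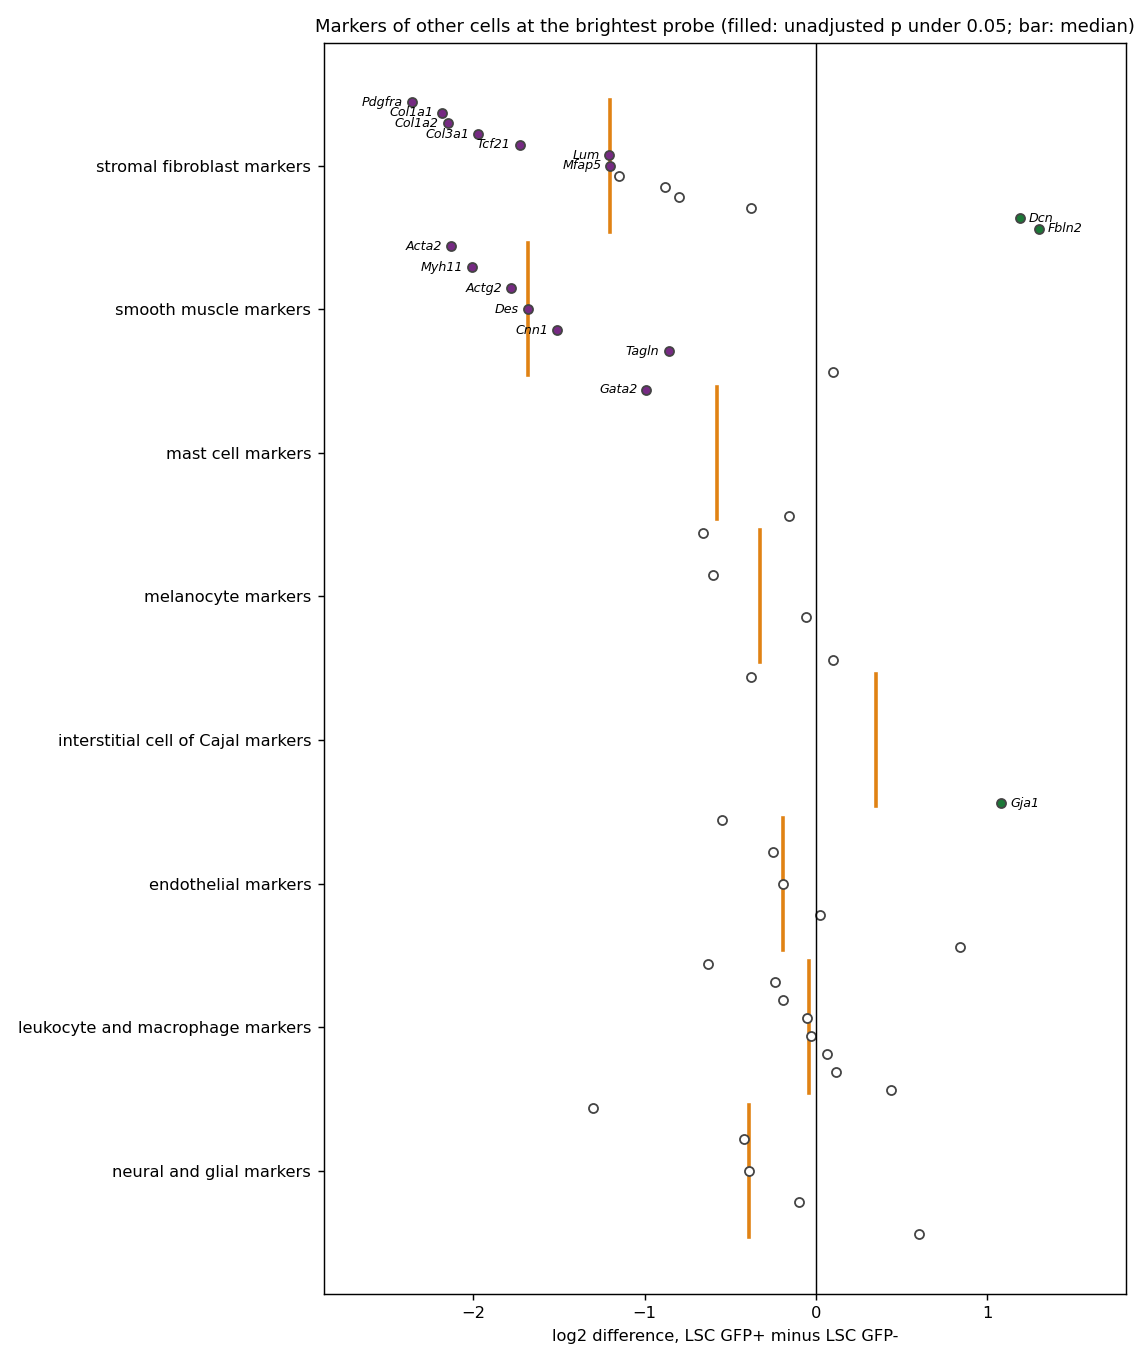
Log2 difference, LSC GFP+ minus LSC GFP-, of the tested genes of 8 marker lists for other cell types, 1 point per gene at its brightest probe. Filled points passed an unadjusted p of 0.05 in limma, and orange bars are list medians. Most stromal and smooth muscle points lie left of 0, with Dcn and Fbln2 on the right, while no endothelial, leukocyte or neural point is filled in this unblocked fit.

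Of 7 luminal markers 2 rose and 1 fell in LSC GFP+ cells, with summed signals of 152 to 215 against 161 to 227, and the luminal keratin genes Krt8, Krt18 and Krt19 differed by -0.30, -0.22 and -0.24 (limma adjusted p = 0.983, 0.996 and 0.996). None of the 5 tested endothelial, 8 leukocyte and macrophage, and 5 neural and glial markers was called by limma at an unadjusted p under 0.05. The summed signal was 5.92 to 7.04 against 6.20 to 7.12 for the endothelial list, and 238 to 318 against 251 to 296 for the leukocyte list, most of it from the brightest probe of Itgam, at a mean of 7.94 and 7.97. For the neural list it was 82.6 to 135 against 85.7 to 157. Of the defining genes, Pecam1 and Kdr of the endothelial list differed by -0.55 and 0.021 and Cd68 and Csf1r of the leukocyte list by 0.12 and 0.067, while Cdh5 and S100b did not pass the filter. With the samples blocked by replicate number, Tubb3 of the neural list, at -1.30, had a limma p of 0.00116 and Flt1 of the endothelial list, at 0.84, one of 0.0247. The neural sum was lower in LSC GFP+ in each pair, at 135 against 157, 111 against 140 and 82.6 against 85.7, and no leukocyte marker was called in the blocked fit at that threshold. The block also added the call of Sox10 in the melanocyte list, at -0.66 with a limma p of 0.0257, and of Ano1, with 0.0439. In the stromal list it added that of Fn1, at -0.38 with a limma p of 0.0488.

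Met was measured at 0.92, 1.61 and 1.20 in LSC GFP+ replicates 1, 2 and 3, and at 0.77, 1.23 and 1.21 in LSC GFP- replicates 1, 2 and 3. The populations overlapped, and replicate 1 was the lowest in both. The means were 1.24 ± 0.35 and 1.07 ± 0.26 (SD, n = 3 each). The fold change was 1.13 with a 95% interval of 0.756 to 1.68 (limma p of 0.508, adjusted 0.996, exact permutation p = 0.6). The interval thus leaves room for a moderate difference either way. All 60 spots of Met were well above background, and the 10 spots of an array scattered with an SD of 0.038 to 0.10. The spread among samples was larger than this scatter in both populations. Without LSC GFP+ replicate 2 the log2 difference was -0.01, so its sign rests on that sample.

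Mst1r was measured at -4.73, -5.96 and -6.22 in LSC GFP+ replicates 1, 2 and 3, and at -5.51, -6.00 and -5.81 in LSC GFP- replicates 1, 2 and 3. Of its 59 spots that were not marked as outliers, 4 were well above background. These were 3 of 9 spots in LSC GFP+ replicate 1 and 1 of 10 in LSC GFP- replicate 3. The spots of an array scattered with an SD of 0.54 to 0.90, several times that of Met. No fold change and no test are given, since the probe was not well above background by most of its spots in either population. A value this low does not show that the transcript was absent.

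**Figure D3:**
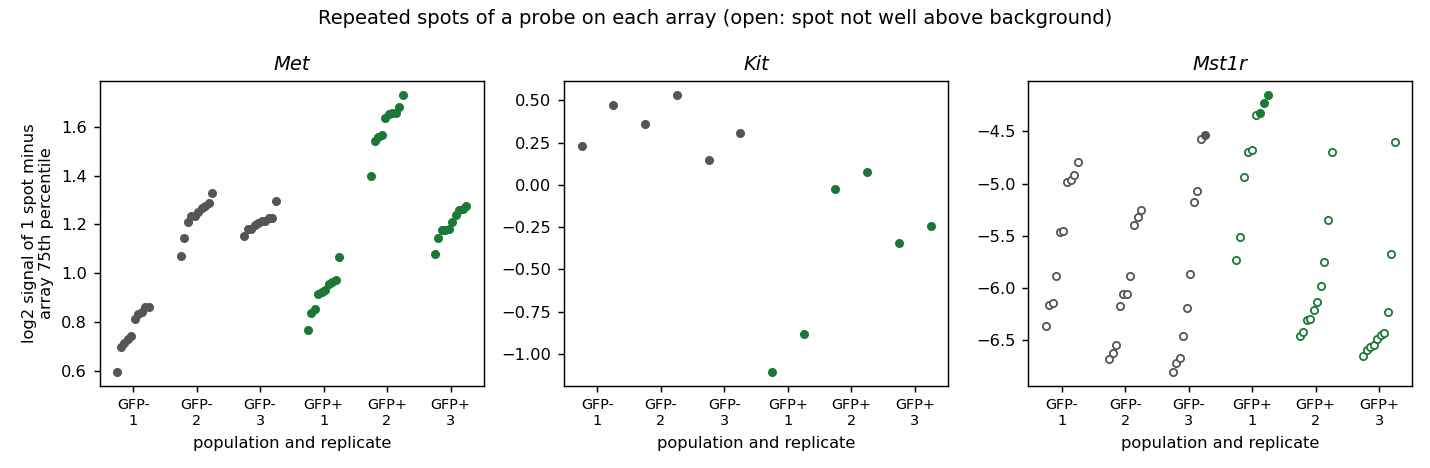
Signal of each repeated spot of the Met, Kit and Mst1r probes on the 6 arrays, as log2 minus the array's 75th percentile, ordered within an array by signal, with each panel on its own scale. Filled points were well above background: all of them for Met and Kit, and 4 for Mst1r.

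The genes around HGF and Met were read from a list of 30 activators, inhibitors, co-receptors, adaptors and phosphatases, of which 27 were tested. In LSC GFP+ cells 3 were higher and 4 lower, where 3.38% and 4.28% of all genes at their brightest probe were. The median log2 difference of the list was 0.014, beside -0.0068 over all genes. Of the activating proteases and their inhibitors that were tested, urokinase alone was called, while F12 and Serpina5 did not pass the filter. The serine protease hepsin (Hpn) differed by -0.044 on the log2 scale (95% interval -0.76 to 0.67), and matriptase (St14), which was bright in both populations at 3.16 and 3.28, by -0.12 (-0.59 to 0.35). The protease inhibitors Spint1 and Spint2 differed by -0.10 (-0.52 to 0.32) and -0.20 (-0.84 to 0.45). Plau, urokinase, was lower by 0.88 on the log2 scale (limma adjusted p = 0.518), with overlap between the populations. Mst1, the Ron ligand, was above background in 2 of 3 samples of each population and was not tested.

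The 3 genes of this list that were higher encode cell-surface or matrix partners. The hyaluronan receptor Cd44, whose variant forms act as Met co-receptors, was higher by 0.61 on the log2 scale, and its other 3 probes gave 0.92 to 1.48, all past the threshold. The heparan sulfate proteoglycan Sdc1 was higher by 0.64, and Dcn, which encodes decorin, a matrix proteoglycan that binds Met and other receptors, by 1.19. The limma p of the 3 were 0.0242, 0.0135 and 0.00261, and the adjusted p 0.482, 0.386 and 0.202. The study names Cd44 and Sdc1 from these arrays, and without them 1 gene was higher and 4 lower of 25. The lower genes besides Plau were Nrp1, a co-receptor of several growth factors, Ptprj, a receptor phosphatase that can act on Met, and Sh3kbp1, an adaptor in receptor uptake. Nrp1 fell by 1.27 and Ptprj by 1.08 on the log2 scale (limma adjusted p = 0.138 and 0.145), and 2 of the other 3 Ptprj probes were past the threshold in the same direction. Sh3kbp1 was lower by 0.66 (limma adjusted p = 0.594). Without LSC GFP+ replicate 2, or without LSC GFP- replicate 3, 4 genes of the list were called.

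Of 29 genes around Kit signalling 26 were tested, with 1 higher, 1 lower and a median log2 difference of 0.075. This is close to the 3.38% and 4.28% of all genes that were called, so the count is not a result about the list. The Src family kinase gene Fyn was higher by 0.67 on the log2 scale (limma adjusted p = 0.481), and the kinase gene Jak2 lower by 0.53 (adjusted p = 0.512). With the replicate number as a block 4 genes were called, and without LSC GFP- replicate 2 or LSC GFP- replicate 3 none, by limma. Adam17, which sheds stem cell factor from the cell surface, differed by 0.056 (95% interval -0.59 to 0.70). Inpp5d, the SHIP1 gene and a brake on signals from Kit, was at background on all 6 arrays at its brightest probe, with mean levels of -6.71 and -6.72. Mmp9, another protease linked to the release of stem cell factor, was likewise below background on all 6 arrays.

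Both receptors signal through the ERK pathway. A list of its feedback regulators and response genes, called ERK feedback genes here, had more genes higher than lower in LSC GFP+ cells. Of 16 genes 14 were tested, 8 were higher and none lower, where 3.38% and 4.28% of all genes were. The median log2 difference of the 14 was 0.62. The phosphatase gene Dusp6, a direct brake on ERK, had means of 3.53 ± 0.12 for LSC GFP+ and 2.51 ± 0.13 for LSC GFP- samples (SD), a 2.02-fold difference (limma adjusted p = 0.129). Ier3 was 2.23-fold and Myc 1.89-fold higher (limma adjusted p = 0.166 and 0.163). The transcription factor genes Egr1, Fosl1 and Etv4 were higher by 0.66, 0.66 and 0.61 on the log2 scale, Phlda1 by 0.62 and the Sprouty gene Spry2 by 0.52, with limma p between 0.0121 and 0.0466. The populations did not overlap for any of these 8 genes, as for 12.3% of all tested probes. Genes picked by p tend to show this, so it adds no support. The 6 tested genes that were not called were Dusp4, Dusp5, Spry1, Spred2, Etv1 and Etv5. Etv1 differed by 0.02 and Etv5 by 0.25 on the log2 scale. Where a gene had another tested probe, it gave -0.31 for Etv1 and 0.95 for Etv4. Fosl1, and Dusp4 and Dusp5 among those not called, passed the filter only through LSC GFP+, and with all 6 arrays above background 7 of 11 genes were higher. The study names Myc and Etv4 from these arrays, and without them 6 of 12 were higher. Without LSC GFP- replicate 1, 5 of 14 were called, and with the replicate number as a block 10 were, by limma. These genes respond to many receptors, and which receptor they followed was not measured.

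**Figure D4:**
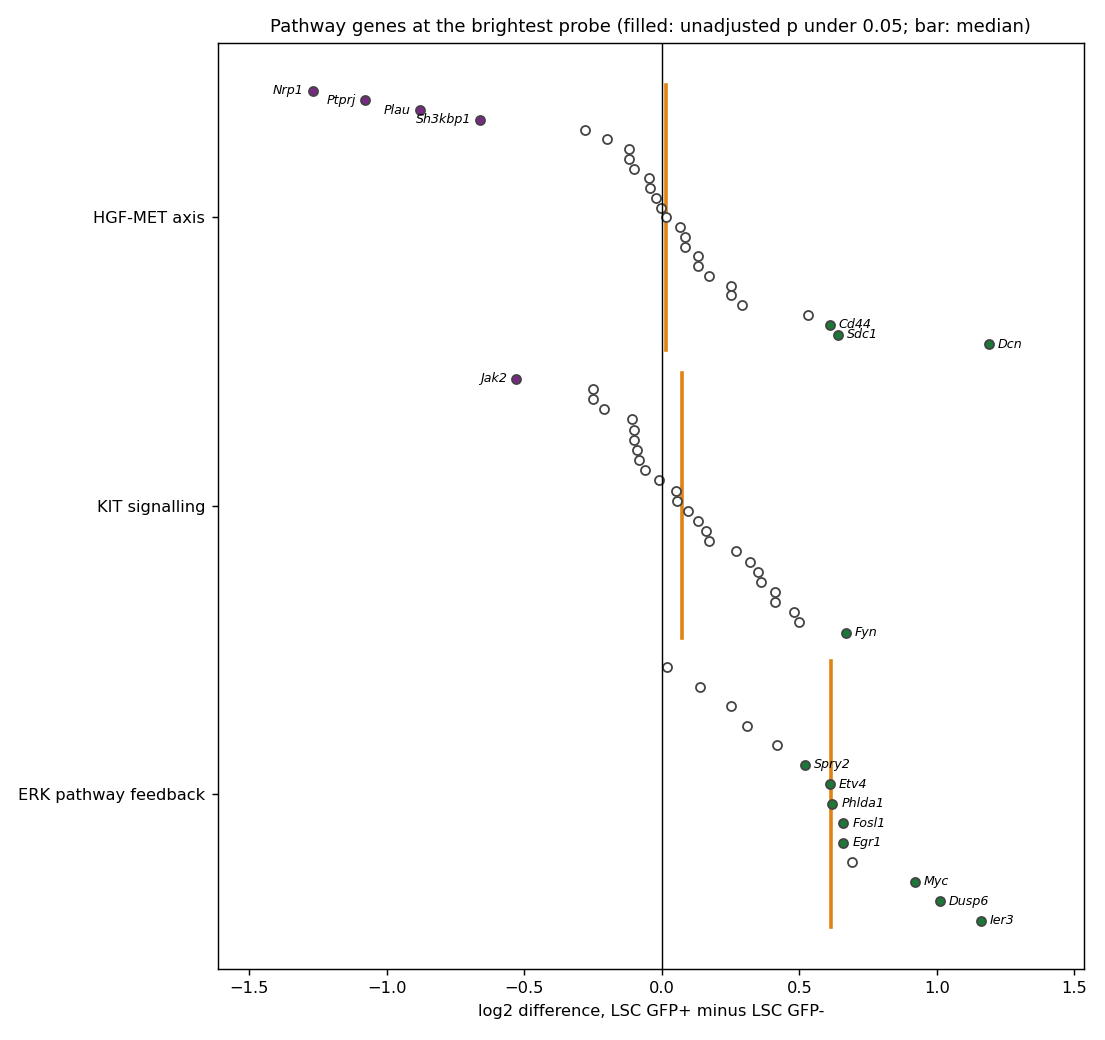
Log2 difference, LSC GFP+ minus LSC GFP-, of the tested genes of the 3 pathway lists, 1 point per gene at its brightest probe. Filled points passed an unadjusted p of 0.05 in limma, green when higher and purple when lower in LSC GFP+, and orange bars are list medians, at 0.014, 0.075 and 0.62 from top to bottom. All 14 ERK feedback points lie to the right of 0, of which Dusp5, at 0.31, fell below 0 with normexp background correction.

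For the 3 members above background on all 6 arrays, which leaves out Hgf and Mst1r, the genes whose levels followed them most closely were found among 13928 named genes, as a description without a test. For Kitl these were Arhgef3 (Pearson r = 0.997), Hells (0.996) and Fmo2 (0.996). For Kit they were Glt8d1 (0.992), Ankrd33 (0.988) and Scai (0.986), and for Met they were Map3k4 (0.998), Limd1 (0.985) and Plcg2 (0.984). With 6 points and this many genes, high values of r occur in numbers, and the points share their slide and scan.

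**Figure D5:**
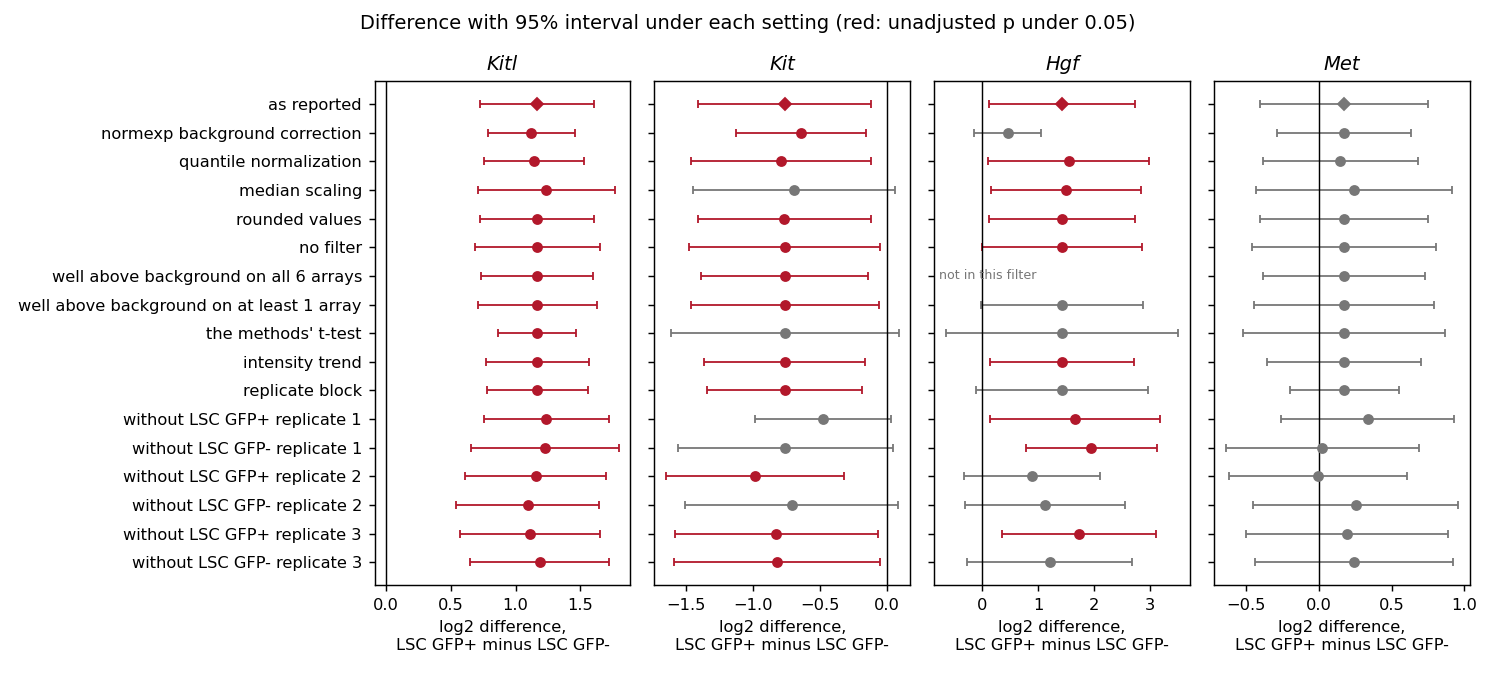
Log2 difference, LSC GFP+ minus LSC GFP-, with its 95% interval for the 4 tested genes, as reported and under each alternative analysis. Red marks an unadjusted p under 0.05. Kitl is red on every line, Kit and Hgf turn grey on several, and Met is grey throughout and falls to -0.01 without LSC GFP+ replicate 2.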

How the data were processed

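RNA was amplified with the Ovation Pico WTA kit, labelled with Cy3 and hybridised to 6 SurePrint G3 Mouse arrays, all on 1 slide with 1 scan, so slide could not be compared. Per the file headers, the deposited intensity values are processed signals of Feature Extraction 11.0.1.1 (the submitters' processing notes name 10.7.3.1), linear, background-subtracted and not normalized between arrays. The deposited table of the whole series holds the same signals rounded, within 0.496%. Here log2 signals minus the array's 75th percentile were averaged over spots, without 123 to 154 outlier spots per array. No spot was saturated. Populations were compared with lmFit and eBayes (limma 3.58.1, R 4.3.3), two-sided and unblocked, with Benjamini-Hochberg adjustment over 37005 probes. The script was tested on simulated data.

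Members and gene lists were chosen with earlier results of these data known. Named in the text are all members, list genes past an unadjusted p of 0.05 (at most 8 a list), 8 fixed list genes, the first 3 genes of each marker list, and the 3 genes most alike in pattern. Itga6, Fbln2, Fn1, Pdgfra, Gata2, Hdc, Fcer1a, Ms4a2, Slc45a2, Gja1, Itgam, Mcpt4, Tubb3, Flt1, Sox10, F12, Serpina5, Dusp4, Dusp5, Spry1, Spred2, Etv1, Etv5 and Mmp9 fall outside this rule and were named after their values were seen. Some marker genes that the rule names are not reported here. A gene of a list was read at its brightest probe. Symbols came from RefSeq accessions for 26582 probes and otherwise from the array design.

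Samples with the same replicate number deviated together from the population means, with correlations across probes of 0.433, 0.277 and 0.668. Samples with different numbers gave -0.547 to 0.223, the highest close to the lowest of the matched values. The numbers in the labels were taken to pair the samples. The main fit stayed unblocked because the study's methods name no block, and the block is given as an alternative. Alternatives were normexp (offset 50), quantile and median scaling, the rounded values, 3 other filters, the methods' t-test, an intensity trend, the replicate block, averaging a gene's probes, and leaving out each array. After the values were seen, the lists without genes the study names, and the mast cell sum without Gata2, were added. P-values measure the spread between 3 samples per population.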

Additional observations from a re-analysis of the deposited data

How the results depend on the processing

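Kitl kept its direction and call in all 17 alternatives, with log2 differences of 1.09 to 1.24 when each array was left out. Kit kept its direction in all 17 and its call in 12, losing it by median scaling (-0.69), by the methods' t-test (-0.76) and without some single arrays (range -0.99 to -0.48). Hgf kept its direction in 16 and its call in 9, losing it by normexp (0.46), with probes above background on at least 1 array (1.43), by the methods' t-test (1.43), with the replicate block (1.43) and without some single arrays (0.90 to 1.95), and it had no value where all 6 arrays had to be above background. Met was past the threshold nowhere, ranged from -0.01 to 0.33 when each array was left out, and turned to -0.01 without LSC GFP+ replicate 2. The replicate block raised the probes past an unadjusted p of 0.05 from 2925 to 5480. It raised the Kit signalling genes from 2 to 4 and the ERK feedback genes from 8 to 10. Among the members it changed the call of Hgf alone. Leaving out each array gave 2077 to 4049 probes, 1 to 3 members, 4 to 7 HGF-MET genes, 0 to 2 Kit signalling genes and 5 to 8 ERK feedback genes. The methods' t-test at the methods' threshold called 1 member and 5 Kit signalling genes. The causes of these changes were not tested. Mst1r entered only the analysis without a filter, at 0.13 with a limma p of 0.756, where its values are near background, slide as a block was not run because there was 1 slide, and the low signal of Hgf and Mst1r over background and the 3 samples per population limit the precision.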
